A study of Homo sapiens with 6 samples.

Results

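The genes described here are 10 that set the entry of pyruvate into the mitochondrial citric acid cycle, out of 60554 gene identifiers counted in the series. They are the 4 pyruvate dehydrogenase kinases PDK1, PDK2, PDK3 and PDK4, the phosphatases PDP1 and PDP2, the E1 subunits PDHA1 and PDHB, and the mitochondrial pyruvate carrier subunits MPC1 and MPC2. PDK4 was chosen by its read counts in these same libraries, where its WT against ZFmut difference was among the largest decreases, and the other 9 genes were added for their role in the same step. The WT against ZFmut values of the 10 genes are therefore given as a description, without a p-value for any single member, and nothing is read from their calls. All 10 had an identifier and enough reads to enter the fit across genes, and 18683 genes of the series did so.

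RNA was sequenced from Daoy, a human cell line established from a medulloblastoma, a tumour of the cerebellum. In 3 libraries (WT) the cells overexpressed wild-type ZBTB7B, and in 3 libraries (ZFmut) they overexpressed ZBTB7B with the substitution R363L in its zinc-finger domain. ZBTB7B is a zinc-finger transcription factor known from T-cell lineage choice. The transgenes were delivered by lentivirus (multiplicity of infection 15, 72 hr, within 4 days of culture in medium with 10% serum) in both groups, so both carry one, and the comparison has no group without it. The promoter of the vector is not given in the sources used here, and all libraries come from 1 cell line. Whether the 3 libraries of a group stem from separate cultures is not stated, and the p-values therefore rest on a spread between libraries that may be technical.

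Pyruvate dehydrogenase turns pyruvate into acetyl-CoA inside mitochondria and commits it to oxidation. The PDK kinases switch the complex off by phosphorylating its E1 alpha subunit, and the PDP phosphatases switch it back on. The 4 kinases are isoenzymes of one family with different tissue ranges. PDK4 is known as the form that fasting, fatty acids and glucocorticoids induce in muscle, heart and liver. The MPC1 and MPC2 proteins form the carrier that brings pyruvate across the inner mitochondrial membrane.

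Reads assigned to genes ranged from 22236214 to 102730428 per library, a 4.62-fold range. ZBTB7B itself was at 899, 863 and 951 CPM (read counts scaled to library size with TMM factors) in the WT libraries and at 555, 547 and 627 CPM in the ZFmut libraries, 1.57-fold higher in WT (edgeR adjusted p = 1.39e-06). The counts add the transgene to the cell's own gene and do not tell the forms apart. Of 7 neural progenitor and medulloblastoma markers, 6 reached 1 CPM, with MYCN near 0. SOX2 was lower in WT (19.2 to 23.0 CPM) than in ZFmut (35.7 to 41.3 CPM), as was NES (103 to 129 against 145 to 171 CPM). VIM, GLI2, SOX9 and CDK6 had overlapping groups. Of the markers of other cell types, leukocyte genes stayed under 1 CPM (0 of 3 reached it), and of 5 genes of fat and muscle, tissues with much PDK4, only ACTN2 reached it, at 1.61 CPM or less. The summed epithelial markers were 247 to 284 CPM in WT and 424 to 519 CPM in ZFmut, nearly all of it KRT8, while EPCAM was at most 0.458 CPM and CDH1 was higher in WT (2.47 to 3.28 CPM) than in ZFmut (0.422 to 0.501 CPM). The summed glial markers GFAP, AQP4, MBP and MOG were 4.39 to 5.0 CPM in WT and 2.09 to 2.68 CPM in ZFmut, with MOG at 1 read in all. That sum followed AQP4 and MBP, while GFAP was lower in WT (0.380 to 0.598 CPM) than in ZFmut (0.626 to 1.25 CPM). All 4 neuron markers reached 1 CPM, at summed levels of 5.75 to 6.49 CPM in WT and 6.87 to 8.66 CPM in ZFmut. That sum followed SYN1 and SNAP25, while RBFOX3 (1.11 to 1.59 CPM in WT, 0.918 to 1.25 CPM in ZFmut) and TUBB3 had overlapping groups. The part of these marker differences in the values below was not tested.

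The stretches of genome just before the starts of PDK4 and PDK3 are shown for contrast. PDK4 had a wide gap between the groups, while PDK3, the kinase with the highest CPM, had overlapping groups. Each is the 250 bases that precede the annotated start, read 5′ to 3′ on the gene's strand from RefSeq on GRCh38.p14. Capitals mark CpG dinucleotides. PDK4 is from chr7:95596517-95596766 on the minus strand, and PDK3 from chrX:24465036-24465285 on the plus strand.
PDK4: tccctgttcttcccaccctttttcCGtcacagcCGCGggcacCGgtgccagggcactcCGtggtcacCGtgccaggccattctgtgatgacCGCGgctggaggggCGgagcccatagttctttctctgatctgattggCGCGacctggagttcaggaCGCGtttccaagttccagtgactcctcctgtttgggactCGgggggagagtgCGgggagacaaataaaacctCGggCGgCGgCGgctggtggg
PDK3: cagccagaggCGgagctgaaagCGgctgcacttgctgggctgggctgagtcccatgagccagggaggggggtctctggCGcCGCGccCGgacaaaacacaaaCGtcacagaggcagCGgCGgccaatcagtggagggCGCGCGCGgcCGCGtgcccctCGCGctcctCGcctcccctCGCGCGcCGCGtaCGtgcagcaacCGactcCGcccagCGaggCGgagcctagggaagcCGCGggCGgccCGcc

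The PDK4 stretch holds 19 CpG dinucleotides at a GC content of 62.8%, and the PDK3 stretch 32 at 73.6%. Over the full window of 250 bases before to 50 after the start, the GC content of PDK4 was 60.7%, near the median of 58.7% for 35116 human promoter windows, and that of PDK3 was 74.3%. Both strands of each window were searched for letters bound by factors known to act on PDK genes. PDK4 held none of them: not GTAAACA, the letters of FOXO factors (in 3.42% of all windows), TCAAGGTCA of the oestrogen-related receptors (0.353%), the direct repeat bound by the PPARs (0.0228%), ACANNNTGT of the glucocorticoid receptor (5.37%), CACGTG (7.26%) or ACGTG of the hypoxia-inducible factors (21.4%). Matches of ACGTG, which lies within CACGTG as well, were counted on each strand, so 1 CACGTG gives 2 matches. They numbered 1 in the PDK3 window and 2 each in those of the second PDK1 start and the second PDK2 start. The PDHB and PDP2 windows held 3 each. In the windows of the second PDK2 start, PDHB and PDP2, 2 of the matches are a single CACGTG. A match is a run of letters and not a measured site, and windows were at hand for 9 of the 10 genes. Only exact letters were searched, so a miss says nothing of sites outside the window or with other letters.

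PDK4 was 6.19-fold lower in WT than in ZFmut. In these bulk samples, fewer cells with the transcript and less transcript per cell cannot be told apart. PDK4 (ENSG00000004799.7, GRCh38 chromosome 7, 95583499 to 95596491, minus strand) was at 2.73, 2.69 and 2.22 CPM in WT replicates 1 to 3, from 79, 153 and 70 reads. In ZFmut replicates 1 to 3 it was at 16.4, 15.1 and 16.1 CPM, from 368, 361 and 1637 reads. Every WT library lay far below every ZFmut library, and the group means were 2.54 ± 0.286 and 15.8 ± 0.705 CPM (SD, n = 3 each). The log2 difference, WT minus ZFmut, was -2.63 ± 0.10 (SE of the edgeR fit), the 7th largest decrease among 14658 tested protein-coding genes. With a library left out in turn it stayed between -2.68 and -2.55. No other annotated gene shares exonic sequence with PDK4.

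The remaining kinases showed no difference of that size. PDK3 (chromosome X, 24465221 to 24541862), a kinase with high activity in vitro and expression in testis and brain, was at 21.2, 20.9 and 22 CPM in WT and at 22.2, 20.6 and 20.4 CPM in ZFmut. Its groups overlapped, with a log2 difference of 0.025 ± 0.07 (SE). PDK1 (chromosome 2, 172555373 to 172608669), the form induced by low oxygen, was at 4.77, 5.81 and 4.65 CPM in WT and at 5.62, 4.96 and 4.90 CPM in ZFmut, again overlapping. PDK2 (chromosome 17, 50094737 to 50112152), the form found in most tissues, was at 14.3, 15.9 and 15.9 CPM in WT and at 16.0, 16.9 and 17.8 CPM in ZFmut. The PDK2 groups did not overlap, but the gap between them was narrow and the log2 difference was -0.14 ± 0.08. For PDK2, 38.6% of the exonic sequence overlaps SAMD14 on the opposite strand, and the library kit that the labels name, NEBNext Ultra, does not mark the strand, so reads of the overlap cannot be assigned to one gene.

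**Figure D1:**
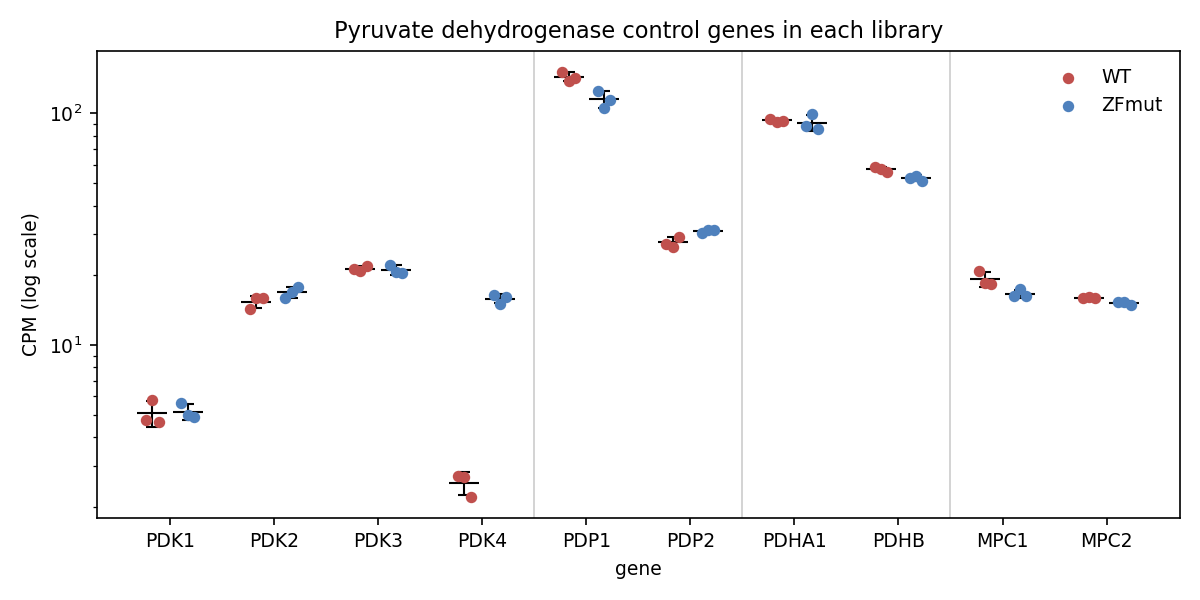
CPM of the 10 genes in the 6 libraries on a log axis, with points for single libraries and bars for the mean ± SD of 3 libraries. PDK4 sits between 2.22 and 2.73 CPM in WT and between 15.1 and 16.4 CPM in ZFmut, and each of the other genes lies close to the same height in both groups.

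Scaled to exon length, the kinase pool held about the same amount of PDK1, PDK2 and PDK3 transcript in both groups. The sum of these 3 was 7.46 ± 0.223 CPM per kb of exon in WT and 7.69 ± 0.105 in ZFmut. With PDK4 added, the sum was 8.03 ± 0.178 CPM per kb in WT and 11.2 ± 0.261 in ZFmut. PDK4 made up 7.72, 7.34 and 6.02% of the pool in the WT libraries. In the ZFmut libraries its share was 31.8, 30.6 and 31.6%. Divided by full exon length, PDK3 was the most abundant kinase transcript in every library, with 53.8 ± 1.56% of the pool in WT and 38.0 ± 1.33% in ZFmut. PDK2 followed with 34.9 ± 1.38 and 27.6 ± 1.75%, and PDK1 gave 4.25 ± 0.503 and 3.10 ± 0.195%. By full exon length, PDK4 ranked above PDK2 in ZFmut, where their values did not overlap (3.33 to 3.63 against 2.92 to 3.25 CPM per kb). In WT it ranked below PDK2 (0.490 to 0.604 against 2.61 to 2.91 CPM per kb). Without the division by exon length the order in ZFmut turned, with a mean of 15.8 CPM for PDK4 and 16.9 CPM for PDK2. The order of PDK4 and PDK1 in WT turned as well, with means of 2.5 CPM for PDK4 and 5.1 CPM for PDK1. The PDK2 length includes the 38.6% shared with SAMD14, and reads there may have been set aside as ambiguous. Its values per kb may therefore be too low, so its order against PDK3, and against PDK4 in ZFmut, is not resolved. The shares of the pool carry the same limit.

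**Figure D2:**
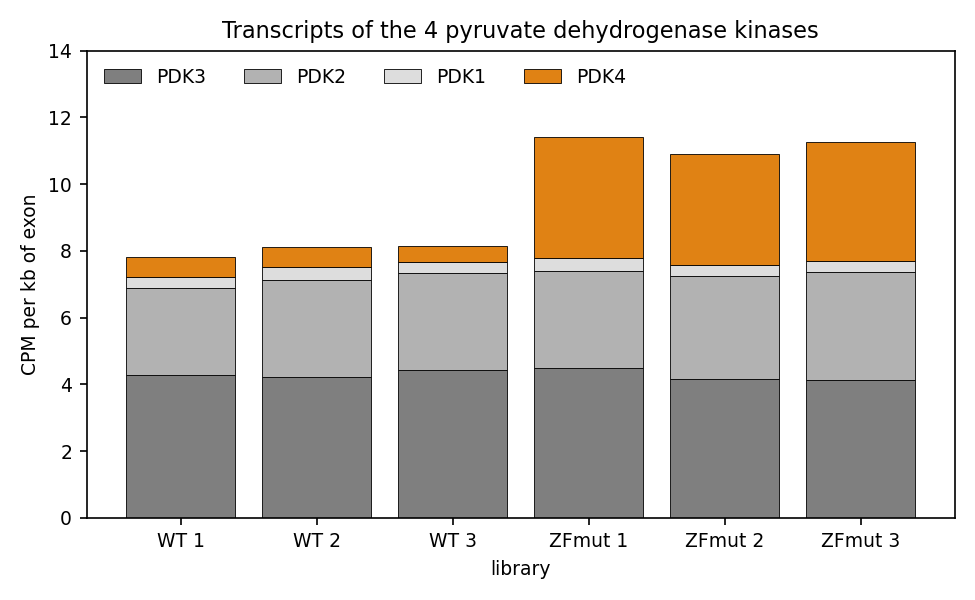
Stacked CPM per kb of exon of the 4 kinases in each library. The part from PDK1, PDK2 and PDK3 is similar in all 6 libraries, and the PDK4 part is 0.490 to 0.604 CPM per kb in WT and 3.33 to 3.63 CPM per kb in ZFmut.

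The phosphatase genes did not share 1 direction. PDP1 (chromosome 8, 93857807 to 93926066), the calcium-stimulated phosphatase, was at 151, 138 and 142 CPM in WT and at 126, 106 and 115 CPM in ZFmut. All WT libraries lay above all ZFmut libraries. The mean was 144 ± 6.34 CPM in WT against 115 ± 9.89 CPM in ZFmut (log2 difference 0.32 ± 0.06). PDP2 (chromosome 16, 66878589 to 66895754), the calcium-independent form, was at 27.3, 26.6 and 29.3 CPM in WT and at 30.4, 31.5 and 31.3 CPM in ZFmut. Its WT libraries lay below its ZFmut libraries by a small margin, with a log2 difference of -0.17 ± 0.06. Per length, PDP1 gave 88.6 ± 0.661% of the phosphatase transcripts in WT and 84.7 ± 1.33% in ZFmut. The ratio of summed kinase to summed phosphatase transcripts per length was 0.259, 0.291 and 0.282 in the 3 WT libraries. It was 0.439, 0.482 and 0.465 in the 3 ZFmut libraries. The groups did not overlap in this ratio, which counts transcripts and not enzyme activity. Its kinase sum includes PDK4, chosen by this same contrast, so the separation is in part set by that choice. Without PDK4 the kinase sum was 7.46 CPM per kb in WT and 7.69 in ZFmut.

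The E1 subunit genes were close to level. PDHA1 (chromosome X, 19343893 to 19361705), the subunit that the kinases phosphorylate, was at 95.0, 91.9 and 92.6 CPM in WT and at 87.9, 99.4 and 85.6 CPM in ZFmut. The groups overlapped, with ZFmut replicate 2 above all WT libraries, and the log2 difference was 0.037 ± 0.06. PDHB (chromosome 3, 58427630 to 58433857), its partner in the E1 tetramer, was at 58.4, 57.7 and 55.6 CPM in WT and at 52.8, 53.8 and 50.9 CPM in ZFmut. These groups did not overlap, at a log2 difference of 0.13 ± 0.05. Of the PDHA1 exonic sequence, 21.3% overlaps MAP3K15 on the other strand.

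For both carrier genes the groups were separated by a small margin. MPC1 (chromosome 6, 166364919 to 166383013) was at 21.0, 18.5 and 18.4 CPM in WT and at 16.2, 17.4 and 16.2 CPM in ZFmut, without overlap and at a log2 difference of 0.21 ± 0.07. MPC2 (chromosome 1, 167916729 to 167937040) was at 16.0, 16.1 and 16.0 CPM in WT and at 15.3, 15.3 and 14.9 CPM in ZFmut, at 0.078 ± 0.07. The MPC2 groups did not overlap, though their means differed by less than 1 CPM, and 22.5% of its exonic sequence overlaps DCAF6 on the other strand. RPS6KA2, a kinase gene that was 4.01-fold higher in WT in these libraries, lies on the same strand as MPC1 and ends 26.4 kb before the MPC1 start, with 2 annotated genes between them. Any link between the 2 differences was not tested.

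Per kb of exon, PDP1 was the most abundant of the 10 transcripts and PDK1 the least in both groups. In ZFmut the order ran PDP1 (20.6 ± 1.77), PDHA1 (20.3 ± 1.64), PDHB (11.1 ± 0.313), MPC1 (10.7 ± 0.440), MPC2 (5.96 ± 0.0909), PDK3 (4.25 ± 0.202), PDP2 (3.71 ± 0.0696), PDK4 (3.51 ± 0.156), PDK2 (3.09 ± 0.163) and PDK1 (0.347 ± 0.0269 CPM per kb). The ranges of PDP1 and PDHA1, of PDHB and MPC1, and of PDP2 and PDK4 overlapped there, so their order is not resolved. In WT, PDK4 stood in 9th place at 0.563 ± 0.0633 CPM per kb, above PDK1 at 0.341 ± 0.0427, and MPC1 and PDHB were the neighbours that overlapped. PDK2 stood in the 8th place in WT and the 9th in ZFmut, and PDK4 in the 9th and the 8th. These places rest on full exon length, which includes sequence shared with other genes, as for PDK2 (38.6%), PDHA1 (21.3%) and MPC2 (22.5%). Values per kb of such genes may be too low, so places close to theirs are not resolved. Without that division PDK4 was below PDK1 in WT, at 2.22 to 2.73 against 4.65 to 5.81 CPM.

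By edgeR's quasi-likelihood test with Benjamini-Hochberg adjustment over all 18683 genes, 35.6% of genes were called, 18.4% higher and 17.2% lower in WT. Of the 10 members, 2 were called higher (PDP1 and MPC1), 1 lower (PDK4) and 7 were not called. The groups of 7 members did not overlap, against 47.2% of all tested genes. Since the members were chosen with this contrast known, nothing is read from these counts. The median log2 difference was 0.031 over the members and 0.004 over all tested genes. Without PDK4, the other 9 ran from -0.17 to 0.32, with a median size of 0.13 against 0.19 for all tested genes. The count of members higher was 1 when any WT library, ZFmut replicate 1 or ZFmut replicate 3 was left out, and the count lower was 2 without ZFmut replicate 1. PDP1 and PDK4 kept their calls in all 15 alternatives, which for PDK4 adds no support, as it was chosen by this contrast. MPC1 was called higher in 6 of them, and PDP2 was called lower in 8. Across the series the test called 3442 genes higher and 3207 lower. With offsets for GC content and exon length and the replicate number as a block the split was 3395 and 4765.

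**Figure D3:**
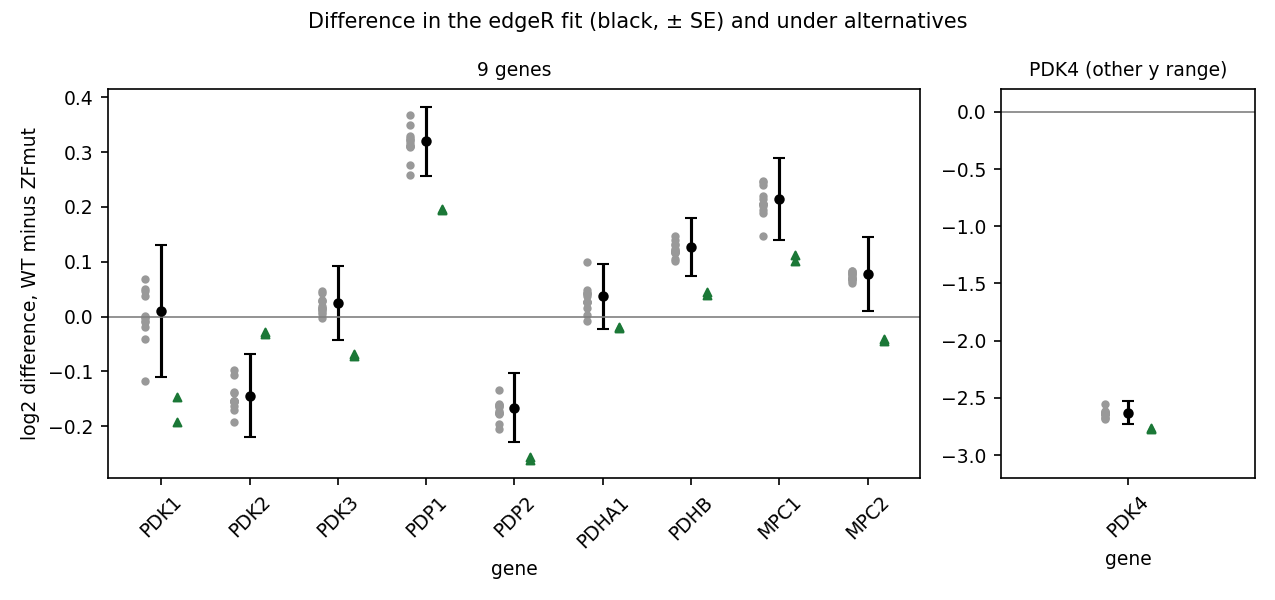
Log2 difference, WT minus ZFmut, for the 10 genes, with black points and bars for the fit ± SE, grey points for alternatives without GC and length offsets, and green triangles for fits with them. The 9 genes other than PDK4 lie between -0.17 and 0.32 in the fit, and PDK4, on its own axis, lies at -2.63.

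The 5 protein-coding genes with the profile nearest to PDK4 over the 6 libraries were TMEM176A, DMBT1, PLCB2, UNC13D and MISP. Nearness was the Euclidean distance between centred log2 CPM values among 13333 genes with a mean of at least 1 CPM, and it ran from 0.404 for TMEM176A to 0.667 for MISP, against a median of 3.24. DMBT1, a scavenger receptor secreted by epithelia, was at 2.0, 1.97 and 1.46 CPM in WT and at 14.1, 13.9 and 14.7 CPM in ZFmut, where it came close to PDK4 in level. TMEM176A, a membrane protein gene on chromosome 7 like PDK4, was at 1.08 ± 0.220 CPM in WT and 5.96 ± 0.558 CPM in ZFmut. PLCB2, a phospholipase C of G protein signalling, was at 0.571 ± 0.107 and 2.84 ± 0.0922 CPM. UNC13D was 5.12-fold and MISP 5.58-fold lower in WT. No other member came nearer to PDK4 than 3.03. PDK4 was chosen by its group difference, and these distances mostly measure likeness to it, so nothing is read from their size. The 5 genes had log2 differences from -2.96 (DMBT1) to -2.25 (PLCB2), against -2.63 for PDK4.

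**Figure D4:**
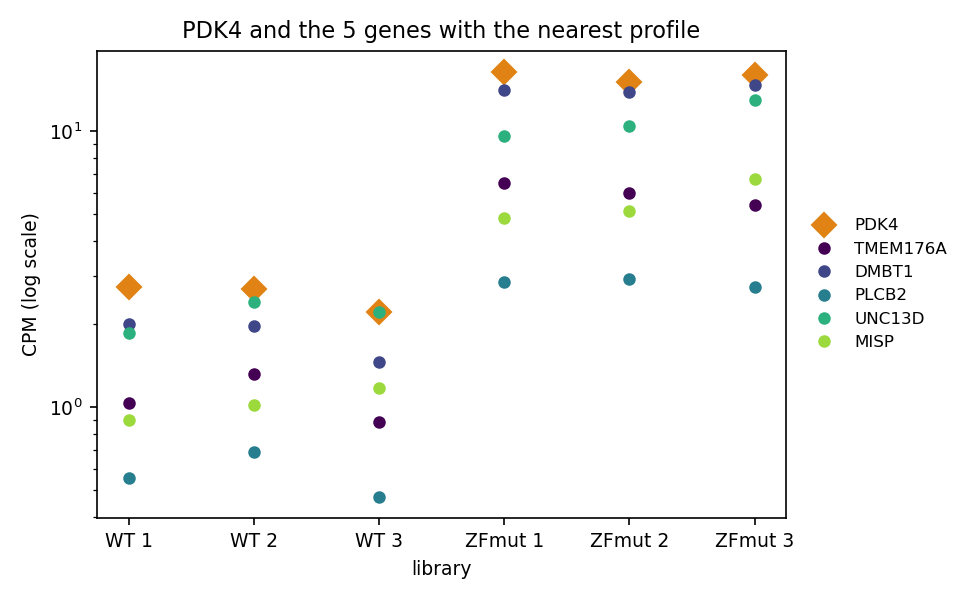
CPM on a log axis of PDK4 (diamonds) and the 5 genes with the nearest profile (circles) in each library. All 6 genes are low in the 3 WT libraries and high in the 3 ZFmut libraries, with DMBT1 nearest to PDK4 in level in ZFmut and UNC13D in WT replicates 2 and 3.

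Of 3 tested genes near PDK4 on chromosome 7, 1 was called higher and 0 lower, against 18.4% and 17.2% of all genes. Within 500 kb of the gene, 14 other genes are annotated and 3 had enough reads to be tested. PPP1R9A, which encodes the actin-binding protein neurabin, rose with WT by 0.32 ± 0.08 on the log2 scale, at 20.7 ± 1.24 against 16.6 ± 1.599 CPM (edgeR adjusted p = 0.00638). That call ended without ZFmut replicate 3. PON2, a paraoxonase, had a mean of 27.4 ± 1.49 CPM in WT and 24.7 ± 1.17 CPM in ZFmut, which is 0.15 ± 0.07 on the log2 scale (edgeR adjusted p = 0.109). DYNC1I1, a dynein chain, had means of 7.79 ± 0.609 and 6.46 ± 0.297 CPM, at 0.25 ± 0.10 (edgeR adjusted p = 0.0612). None of the 3 was called lower by edgeR, DESeq2 or limma-voom. At an unadjusted p under 0.05 in edgeR, 3 were higher and 0 lower. With so few genes, nothing is read from these counts. The nearest protein-coding gene, ASB4, had 54 reads in all libraries together and was not tested. It was at 0.207, 0.106 and 0.0633 CPM in WT and at 0.223, 0.250 and 0.285 CPM in ZFmut, so its WT libraries lay below its ZFmut libraries at a very low level.

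Genes around the pyruvate step were followed in 8 lists of 141 genes, of which 132 could be tested, 34 rose and 28 fell (47.0% called, against 35.6% of all genes). The lists were written with earlier results of these data known. For each list below, the shares over all genes were 18.4% higher and 17.2% lower in WT. Of 13 tested genes for the rest of the 2-oxoacid dehydrogenases and their lipoate cofactor, 1 rose and 3 fell (median log2 difference -0.022). BCKDK, the kinase of the branched-chain complex and a relative of the PDKs, fell from 49.5 ± 4.16 CPM in ZFmut to 40.1 ± 1.69 CPM in WT (-0.30 ± 0.07, edgeR adjusted p = 0.00256). PDPR, the regulatory subunit of the PDP1 phosphatase, fell by 0.19 ± 0.05 (edgeR adjusted p = 0.00776), with 19.6% of its exonic sequence shared with a gene on the other strand. LIAS, the lipoic acid synthase, was the remaining lower gene at -0.26 ± 0.09, and is named for its call. OGDH, the E1 of the oxoglutarate complex, rose by 0.16 ± 0.05 (edgeR adjusted p = 0.0209), a call that ended without WT replicate 1, 2 or 3 or ZFmut replicate 1. Without WT replicate 3, 1 gene of the list was lower. The structural PDH genes PDHX, DLAT and DLD were at 0.061, 0.063 and 0.077 and did not pass.

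Among 20 tested genes that supply pyruvate or take it elsewhere, 1 rose and 8 fell (median -0.14). SLC16A3, the lactate exporter MCT4, fell 2.88-fold, from 164, 182 and 186 CPM in ZFmut replicates 1 to 3 to 54.5, 66.6 and 63.9 CPM in WT replicates 1 to 3 (log2 difference -1.52 ± 0.07, edgeR adjusted p = 1.88e-09). Its WT libraries lay far under its ZFmut libraries. PC, pyruvate carboxylase, which feeds pyruvate into the cycle as oxaloacetate, fell by 0.38 ± 0.07 on the log2 scale, at 81.6 ± 5.97 against 105.9 ± 9.10 CPM (edgeR adjusted p = 0.000605). PFKFB3, which makes the activator of phosphofructokinase, went the other way and rose 1.67-fold, to 110.1 ± 2.03 from 65.8 ± 2.97 CPM (edgeR adjusted p = 8.2e-08). LDHA, the lactate dehydrogenase subunit, was at -0.039 ± 0.05 and did not pass. Processed pseudogenes of GAPDH, ENO1 and LDHB, which were among the lower genes, can compete for their reads, and their part was not tested. LDHB shares 33.4% of its exonic sequence with AC010197.2 on the same strand, and GAPDH 14.2% with AC006064.4 on the other. PC shares 10.5% of its exonic sequence with LRFN4 on the other strand.

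The citric acid cycle enzymes gave 1 call among 15 tested genes. SUCLG1, a succinyl-CoA ligase subunit, rose by 0.18 ± 0.06 at 57.6 ± 1.48 against 51.1 ± 3.76 CPM (edgeR adjusted p = 0.0340). The call ended without WT replicate 1, 2 or 3 or ZFmut replicate 3, in DESeq2, with no low-count filter and after GC and length correction. The median size of a difference in the list was 0.055, against 0.19 over all tested genes. Lower calls numbered 0 by edgeR, DESeq2 and limma-voom alike, and 1 gene was lower at an unadjusted p under 0.05. Without ZFmut replicate 1, 2 genes were higher and 2 lower, and without WT replicate 1, 0 were higher and 1 lower.

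Of 21 tested genes of fatty acid oxidation and PPAR targets, 7 rose and 3 fell (median -0.058). CD36, a fatty acid receptor, was at 2.69, 2.83 and 3.55 CPM in WT and at 0, 0.125 and 0.167 CPM in ZFmut (log2 difference 4.48 ± 0.31, edgeR adjusted p = 8e-08). The ZFmut values rest on 0, 3 and 17 reads, and without ZFmut replicate 3 the log2 difference was 5.46. ANGPTL4, a lipase inhibitor that PPARs and low oxygen induce, rose 2.15-fold, to 7.84 ± 0.487 from 3.63 ± 0.0876 CPM (edgeR adjusted p = 1.66e-06). Both went opposite to PDK4, itself a textbook PPAR target, and any link was not tested. CPT1C, a brain relative of the carnitine transferases, fell by 0.54 ± 0.07 (edgeR adjusted p = 4.04e-05), and ACADM and ECI1 were the other two lower genes. CPT1A, the carnitine transferase that limits mitochondrial fatty acid entry, was higher by 0.14 ± 0.05. Higher calls numbered 4 without WT replicate 1 and 3 without WT replicate 3 or ZFmut replicate 3, and lower calls 1 without WT replicate 3.

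Known regulators of PDK genes split, with 8 of 22 higher and 6 lower (median 0.024). FOXO1, a factor that activates PDK4 in fasting, was at 30.5, 31.2 and 30.1 CPM in WT and at 20.03, 17.5 and 20.5 CPM in ZFmut, a rise of 0.65 ± 0.07 (edgeR adjusted p = 6.66e-06). NR3C1, the glucocorticoid receptor, rose by 0.57 ± 0.06 to 132.8 ± 7.29 from 89.6 ± 4.04 CPM (edgeR adjusted p = 2.8e-06). EPAS1, the hypoxia-inducible factor 2 alpha, rose by 0.53 ± 0.05 (edgeR adjusted p = 3.06e-06). The fatty acid receptors PPARA, PPARG and PPARD were all lower, at -0.49, -0.42 and -0.22, and they are named as a family after their values were seen. Without ZFmut replicate 3, 3 regulators were lower.

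Called FOXO target genes had 1 direction, opposite to that of PDK4, and any link between them was not tested. Of 15 tested, 8 rose and 0 fell (median 0.21), against 18.4% higher and 17.2% lower over all genes. Over all 15 alternatives the counts were 7 to 9 higher and 0 lower. No member was lower in DESeq2 or limma-voom, nor at an unadjusted p under 0.05 in edgeR. CCNG2, an unconventional cyclin, rose 1.90-fold to 19.5 ± 1.73 from 10.2 ± 0.902 CPM (edgeR adjusted p = 1.88e-06). CITED2, a transcriptional cofactor, rose 1.69-fold (edgeR adjusted p = 4.04e-06) and INSR, the insulin receptor, 1.37-fold (edgeR adjusted p = 1.84e-05). TXNIP, which restrains glucose uptake, was at -0.15 ± 0.18 and did not pass.

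Glucocorticoid receptor targets gave 3 higher and 3 lower genes of 13 (median 0.058). SGK1, a kinase of ion transport, rose 1.63-fold to 112 ± 3.72 from 68.7 ± 6.08 CPM (edgeR adjusted p = 8.83e-07), and CEBPD, a transcription factor, 1.53-fold (edgeR adjusted p = 0.000445), with NFKBIA as the remaining higher gene. CEBPB, a transcription factor of the same family as CEBPD, and MT2A, a metallothionein, were among the lower genes, at -0.44 ± 0.09 and -0.28 ± 0.06. FKBP5, TSC22D3, PER1 and KLF9, common markers of receptor activity, were at 0.058, -0.14, 0.065 and 0.11 and did not pass.

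Targets of the hypoxia-inducible factors were divided, with 5 of 13 higher and 5 lower (median 0.11). NDRG1, a stress-responsive gene, rose by 0.57 ± 0.05 to 60.1 ± 0.713 from 40.6 ± 1.66 CPM (edgeR adjusted p = 2.03e-06), and ADM, adrenomedullin, by 0.59 ± 0.09 (edgeR adjusted p = 0.0001005). PFKFB4, a relative of PFKFB3, fell by 0.58 ± 0.08, at 12.3 ± 0.859 against 18.5 ± 1.63 CPM (edgeR adjusted p = 9.22e-05). P4HA1, KDM3A and INSIG2 were the other higher genes, and DDIT4, BNIP3, EGLN3 and SLC2A1 the other lower ones. Higher calls numbered 3 without WT replicate 1 and 2 without ZFmut replicate 3, and lower calls 3 without ZFmut replicate 2 or 3. PDK1, a known target of the same factors, had overlapping groups.

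**Figure D5:**
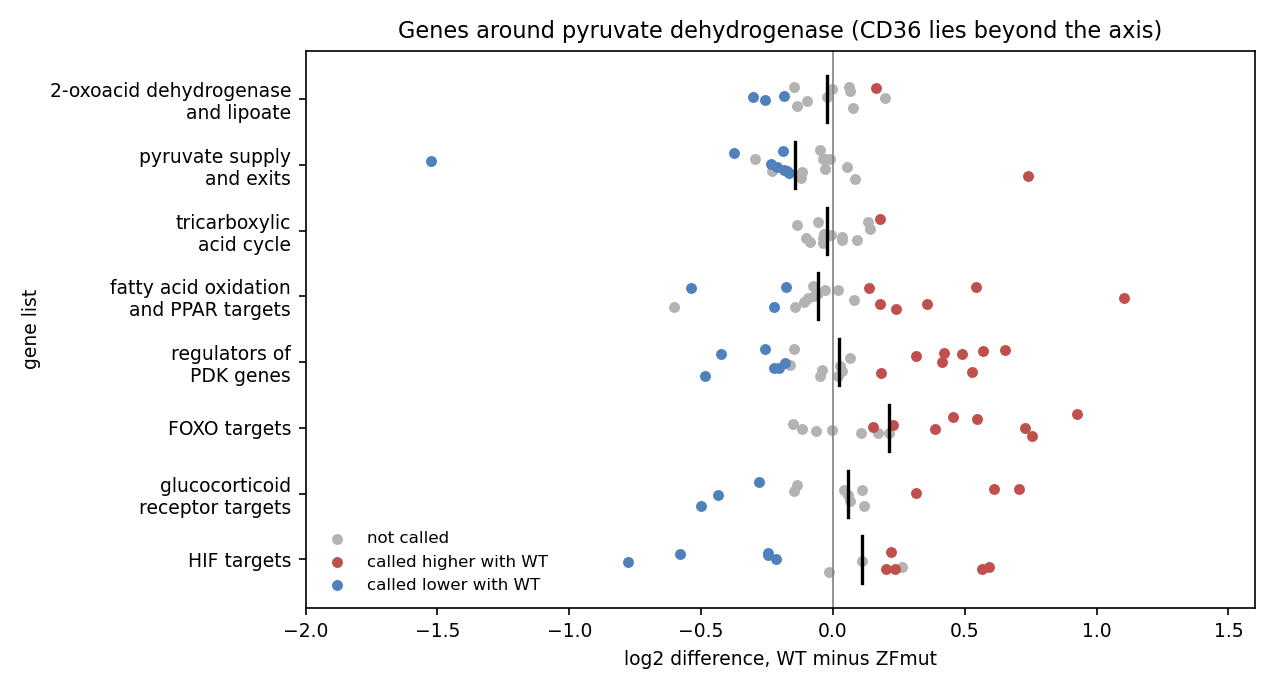
Log2 difference, WT minus ZFmut, of each tested gene in the 8 lists, coloured by edgeR call, with a black line at each list's median. The FOXO targets have 8 red points and no blue ones, the genes of pyruvate supply and exits have 8 blue points with SLC16A3 farthest left, and CD36, at 4.48, is beyond the axis.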

How the data were processed

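The authors deposited, for each library, unnormalized read counts per Ensembl gene. The tools named in the submitters' processing notes are DESeq2, HTSeq, TopHat2 2.0.9 and cutadapt, with build GRCh38. Their annotation and strand setting: not given in the sources used here. The last 5 lines of each file name no gene and were left out; they hold 7.71 to 8.08% ambiguous reads, 5.04 to 6.56% outside genes and 16.1 to 19.4% aligned to several places. Symbols, positions and exon lengths came from GENCODE release 29, which matched 94.1% of identifiers.

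WT and ZFmut were compared in R 4.3.3 with edgeR 4.0.16 (TMM, filterByExpr, two-sided quasi-likelihood F test, no covariates), with p adjusted by Benjamini-Hochberg at 0.05. Alternatives were other scalings, DESeq2 1.42.0, limma-voom (limma 3.58.1), other filters, each library left out, the replicate number as a block, and loess offsets (span 0.5) for exon length and the GC content of the longest transcript. The fits were tested on simulated data. Libraries of a group differed beyond sampling noise (chi-square per degree of freedom 3.16 to 7.17).

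The members, lists and rules were chosen with earlier results of these data known. Named genes are the members, ZBTB7B, up to 3 called genes of smallest p per list, tested PDK4 neighbours and the 5 genes most like PDK4. Others were named after their values were seen, and 1 gene that the rule names is not reported here.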

Additional observations from a re-analysis of the deposited data

How the results depend on the processing

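With GC and length offsets (in brackets, with the replicate block too), the member differences were PDK1 -0.15 (-0.19), PDK2 -0.032 (-0.028), PDK3 -0.071 (-0.069), PDK4 -2.77 (-2.775), PDHA1 -0.019 (-0.021), PDHB 0.045 (0.039), PDP1 0.195 (0.196), PDP2 -0.262 (-0.256), MPC1 0.113 (0.102) and MPC2 -0.041 (-0.045). For PDK1, PDK3, PDHA1 and MPC2, none of them called, the sign differed from that without offsets. With single libraries left out MPC2 ran from 0.062 to 0.08, and PDK1 (-0.117 to 0.069), PDK3 (-0.002 to 0.046) and PDHA1 (-0.008 to 0.099) took both signs. Members called higher numbered 1 with DESeq2, with no low-count filter and with either offset fit, 3 (PDHB added) with the filter of 5 CPM in 3 libraries and with the block, and 1 to 2 without single libraries. Members called lower numbered 2 with either other scaling, limma-voom, that filter, the block and either offset fit, and 1 to 2 without single libraries. Without length scaling PDK4 was 5.74% of the kinase pool in WT and 26.9% in ZFmut.

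Either offset fit gave 5 lower 2-oxoacid dehydrogenase genes, 2 higher and 13 lower pyruvate supply genes, 2 lower cycle genes and 2 higher hypoxia targets; lower fatty acid oxidation genes numbered 5, or 6 with the block. DESeq2 gave 0 higher cycle genes and 3 higher hypoxia targets, and no low-count filter 0 higher cycle genes. With the replicate block alone 4 cycle genes were higher and 3 lower, 5 fatty acid oxidation genes were lower and 3 PDK4 neighbours higher (2 with offsets and block). Without single libraries, higher and lower counts ran 0 to 1 and 1 to 3 (2-oxoacid dehydrogenases), 0 to 2 and 0 to 2 (cycle), 3 to 6 and 1 to 3 (fatty acid oxidation), 2 to 5 and 3 to 5 (hypoxia targets), lower regulators 3 to 8, and higher neighbours 0 to 1. The cause of these changes was not tested.

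The replicate numbers did not pair the samples by the rule used (correlations of deviations 0.164, 0.077 and 0.064 for numbers 1 to 3), although each library correlated best with its own number. The block raised the calls over all genes to 4466 higher and 4226 lower. Of 329 alternative values of the 22 named list genes, 316 kept their direction and call, 13 kept only their direction (those of PDPR, OGDH and SUCLG1) and 0 reversed. PDK4 rests on 70 to 153 reads per WT library, which limits its precision there.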
